A study of Homo sapiens with 6 samples.

Results

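The genes described here are 40 components of the cell division machinery: the mitotic kinases and their partners, the kinesins and other proteins of the spindle, and the genes of the kinetochore, the spindle checkpoint and chromosome structure. They were taken by symbol from a table of 26372 genes, and all 40 were found. All 40 also reached the mean of 1 FPKM over the 6 libraries that was required for testing, among 12164 genes that did so. FPKM in its basic form is the number of fragments of a gene scaled by its length and by the mapped total of the library.

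Polyadenylated RNA was sequenced from BE(2)-M17, an established cell line of human neuroblastoma. There were 3 libraries of cells with GOMAFU (a long non-coding RNA, symbol MIAT) knocked down, and 3 control libraries. Replicates carry the numbers 2, 3 and 4 in both groups. Cells were transfected with 100 pmol of small RNA and a lipid reagent. The sources used here give neither the sequence of that RNA nor the treatment of the control cells. They also leave unstated whether replicates were separate cultures, so the p-values may rest on technical spread only. MIAT (chr22:26646428-26676475, plus strand, GENCODE 29 on GRCh38) stood at 1.27, 1.32 and 3.21 FPKM in the knockdown libraries, in the order of their numbers, against 5.38, 5.96 and 8.57 FPKM in the control libraries. Its knockdown mean was 29.2% of the control mean (log2 difference -1.42, SE 0.27, limma unadjusted p = 0.00125, adjusted p = 0.9998). The groups did not overlap, and the exact two-sided permutation test gave p = 0.1, the smallest that 3 against 3 allows.

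Cells entering mitosis activate CDK1 bound to cyclins A and B, and the Aurora and Polo kinases then drive centrosome maturation, spindle assembly and chromosome alignment. Kinetochores, built on centromeres marked by CENPA, hold the chromosomes to microtubules, and the spindle checkpoint delays the anaphase-promoting complex until all are attached. Many of these genes are transcribed mainly in G2 and M phase, through promoters with a cell cycle homology region (CHR) and CCAAT boxes bound by NF-Y, and their RNA is therefore commonly read as a measure of dividing cells. In bulk RNA, fewer cells in mitosis and less RNA per cell cannot be told apart.

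Knockdown replicate 4 stood apart from the other libraries. It correlated with them at r = 0.940 to 0.956 across genes, whereas the control libraries correlated with each other at 0.988 to 0.996. The 38 interferon response genes measured took 0.136%, 0.0400% and 2.39% of the FPKM sum in knockdown replicates 2, 3 and 4, against 0.0292% to 0.0337% in the controls. Depth, read from the step between low values and set relative to control replicate 3, was 1.07, 1.36 and 1.06 in the knockdown libraries and 1.10 and 0.972 in control replicates 2 and 4. Over the 11 adrenergic neuroblastoma markers that were tested, the FPKM sum was 4736 to 5071 in the knockdown libraries and 5450 to 5572 in the controls. The sum rests mostly on the most abundant markers, and only 1 of the 11 was lower without overlap (4.35% of all genes). In knockdown replicate 4, 7 lay below all controls (35.9% of all genes). The 4 above them (30.7%) included PHOX2A, HAND2 and GATA3. TH, the first enzyme of catecholamine synthesis and a marker of that state, was listed below 0.1 FPKM in all 6 libraries, while PHOX2A, HAND2 and GATA3 lay between 141 and 606 FPKM. Of 15 mesenchymal markers the sum was 158 to 304 FPKM in the knockdown libraries and 203 to 312 FPKM in the controls, nearly all of it VIM, with PRRX1, TWIST2 and CCN2 at 0 in all 6 libraries. The fitted medians were -0.06 over the 11 adrenergic and -0.11 over the 4 mesenchymal markers tested, and none passed the adjusted threshold.

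The 40 genes were lower in knockdown replicate 4 and close to the controls in knockdown replicates 2 and 3. The median member differed from the control mean by -0.04, -0.02 and -0.39 on the log2(FPKM + 1) scale in knockdown replicates 2, 3 and 4, where the medians of all genes tested were -0.01, 0.00 and -0.01. In knockdown replicate 4, 38 of the 40 lay below all 3 controls, as did 35.9% of all genes tested, and none lay above them, as 30.7% of all genes did. KNTC1 and KIF18A were the members not below all controls there. In knockdown replicate 2, 13 members lay below all controls (25.9% of all genes) and 2 above (23.1%). In knockdown replicate 3, 8 lay below (21.2%) and 8 above (22.7%). The counts in replicate 3 were near the shares of all genes, and in replicate 2 more members than that share lay below the controls and fewer above. The replicate 2 count depends on the scaling: 2 members lay below all controls with equal FPKM sums, where the member median was 0.06, and 8 under quantile normalization. In knockdown replicate 4, 14 members were more than 0.5 below the control mean, as were 3.3% of all genes, and none were in replicates 2 and 3 (0.715% and 0.411% of all genes). Knockdown replicate 4 held the lowest value of the 6 libraries for 37 members (31.4% of all genes), and 15 members were below the control mean in all 3 knockdown libraries (14.7%). Each of these counts sets knockdown libraries against 3 controls and carries no test.

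**Figure D1:**
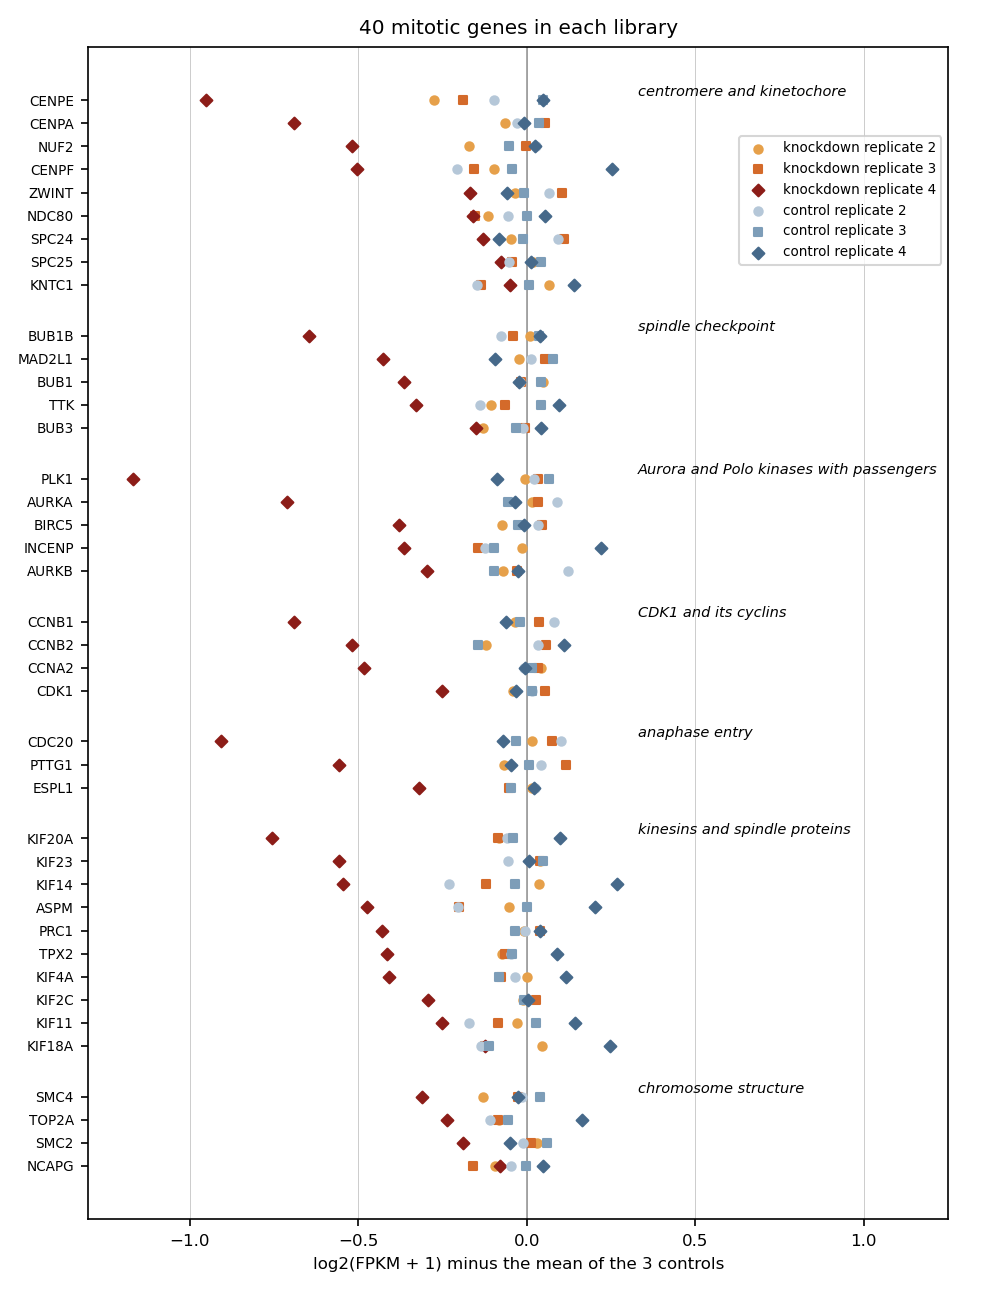
Difference of log2(FPKM + 1) from the mean of the 3 controls (x axis) for the 40 genes, grouped by role, with 1 point per library (orange and red for knockdown, blue for control). The points of knockdown replicate 4 lie to the left of all controls for 38 genes, while those of knockdown replicates 2 and 3 lie among or near the controls.

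Together the 40 genes, which lie on 17 chromosomes, made up 0.436%, 0.426% and 0.323% of the FPKM sum in the knockdown libraries, against 0.410%, 0.425% and 0.434% in the controls. The median member in knockdown replicate 4 stood at 75.5% of its control mean. The range was wide, with PLK1 at 43.3% of its control mean and KNTC1 at 96.1%. The spread among controls was small beside this for most members, with a median coefficient of variation of 5.32% and a range of 0.509% (KIF2C) to 18.7% (KIF14).

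Over the groups, none of the 40 genes passed an adjusted p under 0.05 in limma, and none of the 12164 genes tested did (0% in either direction). All 40 fitted differences were below 0, as were 53.3% of those of all genes, with a median of -0.15 beside -0.01. Without knockdown replicate 4, 25 of the 40 were below 0 and the median was -0.02. With limma library weights 28 were below 0 and the median was -0.03, and with equal FPKM sums 35 and -0.10. The share of 53.3% is that of the main fit only, and with equal FPKM sums the median of all genes was 0.04. At an unadjusted p under 0.05, 1 member was lower (CENPE), against 1.19% of all genes lower and 0.97% higher. All 3 knockdown values lay below all 3 control values for 6 members (CENPE, NDC80, KIF20A, TPX2, NCAPG and SMC4), as for 4.35% of all genes, and for no member did they all lie above (4.01%). That count was 3 under upper-quartile scaling, 1 when libraries were scaled to the same FPKM sum and 3 under quantile normalization. CENPE was left in each, and NDC80 and NCAPG in the first and last. KIF20A, TPX2 and SMC4 overlapped under all 3 scalings.

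**Figure D2:**
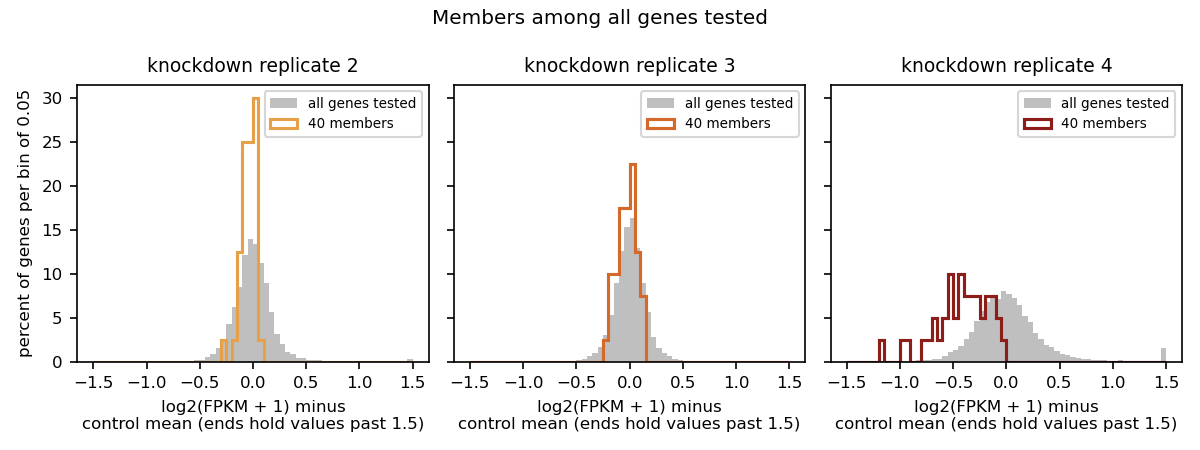
Distribution of the difference of log2(FPKM + 1) from the control mean for the 40 genes (coloured outline) and for all 12164 genes tested (grey), in percent of genes per bin, in knockdown replicates 2, 3 and 4. The outline sits over the centre of the grey in replicates 2 and 3 and to its left in replicate 4, with a median of -0.39.

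PLK1, the Polo-like kinase that acts from centrosome maturation to cytokinesis, was the member farthest below its controls in knockdown replicate 4. The gene (chr16:23677656-23690367, plus strand) had 48.5, 49.8 and 21.1 FPKM in the knockdown libraries, against 49.4, 51.0 and 45.8 FPKM in the controls. Knockdown replicates 2 and 3 were within the range of the controls, and replicate 4 alone was below it. Of all genes tested, 0.123% were as far or farther below the control mean in that library. The group means were 39.8 ± 16.2 FPKM in knockdown and 48.7 ± 2.69 FPKM in control (SD, n = 3 each), with a log2 difference of -0.38 (SE 0.31, limma adjusted p = 0.9998) that was 0.01 without knockdown replicate 4.

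CENPE, the kinesin-like motor that carries chromosomes to the spindle equator, had the lowest fitted difference of the 40 and was below the controls in all 3 knockdown libraries. The gene (chr4:103105806-103198409, minus strand) had 19.5, 20.8 and 11.8 FPKM in the knockdown libraries, against 22.2, 24.6 and 24.7 FPKM in the controls. The groups did not overlap, and replicate 4 was the lowest of the 6 libraries. The means were 17.4 ± 4.83 FPKM in knockdown and 23.8 ± 1.42 FPKM in control (SD, n = 3 each). The log2 difference was -0.47 (SE 0.20, limma unadjusted p = 0.0476, adjusted p = 0.9998), and -0.23 (SE 0.08, adjusted p = 0.959) without knockdown replicate 4. Over the alternatives its smallest adjusted p was 0.0730.

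CDC20, the activator of the anaphase-promoting complex, followed PLK1 and CENPE in knockdown replicate 4, at 52.9% of its control mean. It had 124.5, 130.0 and 65.3 FPKM in the knockdown libraries, against 132.2, 120.6 and 117.4 FPKM in the controls. Knockdown replicates 2 and 3 were inside the control range. The means were 106.6 ± 35.9 FPKM in knockdown and 123.4 ± 7.84 FPKM in control (SD, n = 3 each), a log2 difference of -0.27 (SE 0.25, limma adjusted p = 0.9998) that was 0.05 without knockdown replicate 4. Next came KIF20A, a kinesin of the central spindle, with 53.3, 53.2 and 33.1 FPKM in the knockdown libraries and 54.2, 54.9 and 60.5 FPKM in the controls. Its groups did not overlap, but knockdown replicates 2 and 3 were close below control replicate 2. Its means were 46.5 ± 11.6 FPKM in knockdown and 56.5 ± 3.46 FPKM in control (SD, n = 3 each), a log2 difference of -0.31 (SE 0.18, limma adjusted p = 0.9998) that was -0.08 without knockdown replicate 4.

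**Figure D3:**
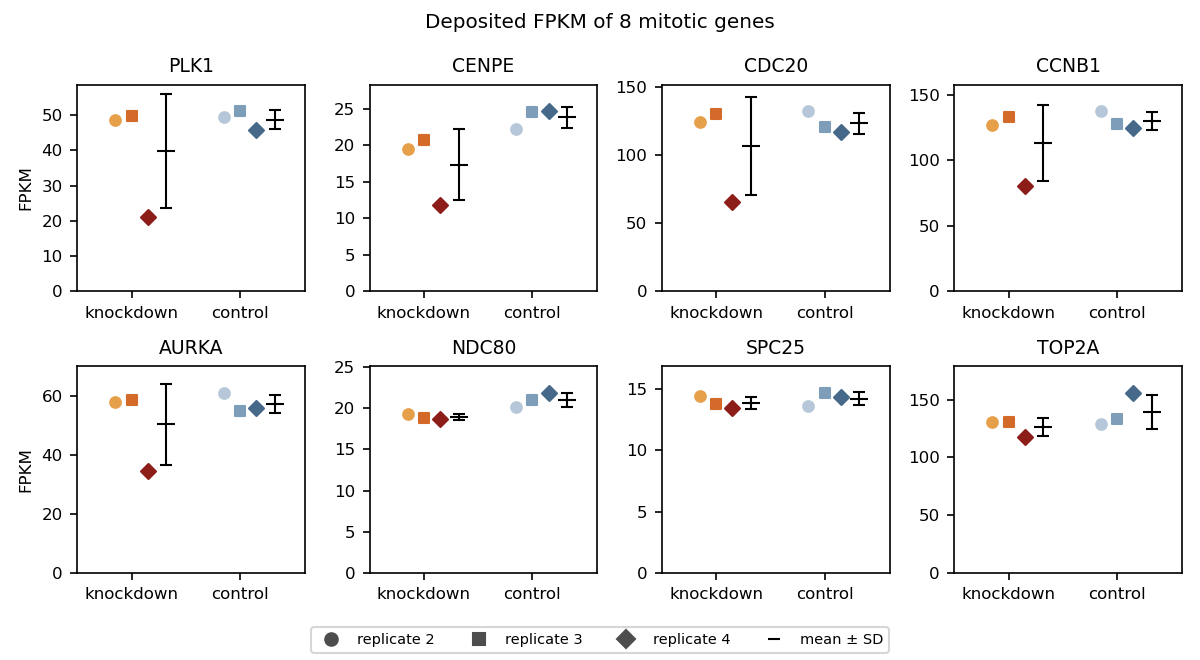
FPKM of 8 members in each knockdown library (left) and control library (right), with the mean ± SD of each group (n = 3). PLK1, CENPE, CDC20, CCNB1 and AURKA have 1 low point, knockdown replicate 4, while NDC80, SPC25 and TOP2A lie closer together.

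The promoters of the 4 members farthest below the controls in knockdown replicate 4 and of SPC25, among the nearest to them, are given to show what the windows hold. KNTC1, the nearest, is not in the table used. Each is 300 bases from RefSeq (GRCh38.p14), 250 before and 50 after the annotated start, written 5′ to 3′ along the gene. Capitals mark CHR letters (TTTGAA or TTCGAA) and NF-Y box letters (CCAAT) on either strand. The windows are chr16:23678639-23678938 (plus strand) for PLK1, chr4:103198294-103198593 (minus strand) for CENPE, chr1:43358731-43359030 (plus) for CDC20, chr5:138178862-138179161 (plus) for KIF20A and chr2:168890381-168890680 (minus) for SPC25. For all 5 genes the RefSeq start lies inside the longer gene span of GENCODE.
PLK1: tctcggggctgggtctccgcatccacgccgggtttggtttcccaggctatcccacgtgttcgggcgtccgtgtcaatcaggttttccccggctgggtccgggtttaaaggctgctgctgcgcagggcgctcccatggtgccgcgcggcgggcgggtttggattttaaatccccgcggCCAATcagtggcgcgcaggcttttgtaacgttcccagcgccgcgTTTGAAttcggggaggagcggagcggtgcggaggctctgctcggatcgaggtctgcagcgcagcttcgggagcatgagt
CENPE: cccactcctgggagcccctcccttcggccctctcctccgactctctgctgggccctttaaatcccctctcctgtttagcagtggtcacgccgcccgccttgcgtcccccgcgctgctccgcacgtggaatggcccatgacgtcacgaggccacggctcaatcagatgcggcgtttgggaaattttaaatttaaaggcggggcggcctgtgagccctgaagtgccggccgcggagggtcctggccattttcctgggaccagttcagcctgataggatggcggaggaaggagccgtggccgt
CDC20: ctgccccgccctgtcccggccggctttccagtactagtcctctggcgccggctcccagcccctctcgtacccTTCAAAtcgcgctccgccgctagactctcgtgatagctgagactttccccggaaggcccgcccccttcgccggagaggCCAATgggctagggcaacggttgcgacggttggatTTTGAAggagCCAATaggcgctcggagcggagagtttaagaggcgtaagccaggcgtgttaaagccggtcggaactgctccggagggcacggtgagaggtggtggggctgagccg
KIF20A: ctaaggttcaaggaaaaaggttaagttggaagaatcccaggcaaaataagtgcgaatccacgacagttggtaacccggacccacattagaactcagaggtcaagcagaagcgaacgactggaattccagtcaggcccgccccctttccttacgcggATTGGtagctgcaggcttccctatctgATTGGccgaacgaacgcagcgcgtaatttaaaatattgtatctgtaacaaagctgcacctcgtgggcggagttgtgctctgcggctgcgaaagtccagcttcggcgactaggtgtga
SPC25: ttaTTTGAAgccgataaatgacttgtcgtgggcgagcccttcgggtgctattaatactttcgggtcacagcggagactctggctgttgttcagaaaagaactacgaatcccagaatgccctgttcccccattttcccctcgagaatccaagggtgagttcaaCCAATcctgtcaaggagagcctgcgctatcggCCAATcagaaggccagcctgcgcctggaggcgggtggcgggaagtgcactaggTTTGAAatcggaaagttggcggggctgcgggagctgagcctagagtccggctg

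PLK1 held a CHR match at -29 and a CCAAT match at -73 from the start, and CDC20 held 2 of each. KIF20A had CCAAT on the reverse strand at -94 and -67 and no CHR letters, and CENPE had neither. SPC25, at 94.5% of its control mean in knockdown replicate 4, had 2 CHR and 2 CCAAT matches, so in these 5 windows the letters did not follow the order of the differences. Promoters were matched for 34 of the 40 members. Of those, 76.5% held CHR letters, against 10.6% of the 9171 promoters of genes tested and 16.6% of all 27305 promoters. CCAAT was in 76.5% of the member windows, against 37.3% and 35.7%. Both were in 58.8%, against 4.65% and 6.58%. E2F letters (TTTGGCGC, TTTCGCGC, TTTCCCGC or TTTGCCGC, either strand) were in 5.88%, against 5.59% and 3.33%. In knockdown replicate 4 the median difference was -0.39 over the 26 members with CHR letters and -0.52 over the 8 without, and -0.43 over the 26 with CCAAT and -0.30 over the 8 without. A match is a description of the letters and was not tested as a site.

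**Figure D4:**
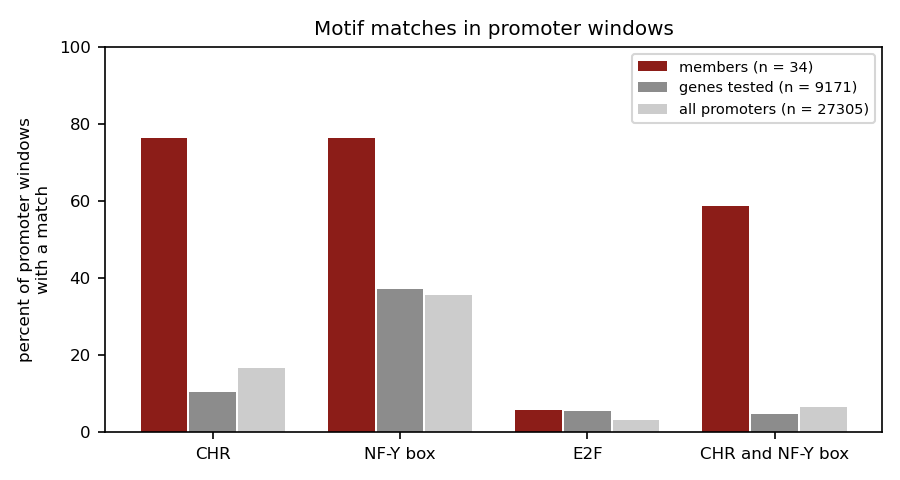
Percent of promoter windows with a match for 3 motifs and for CHR and the NF-Y box together, in the members (n = 34), genes tested (n = 9171) and all promoters (n = 27305). Member windows hold CHR letters in 76.5%, against 10.6% and 16.6%.

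The Aurora kinases and the passenger proteins had median differences of -0.01, 0.03 and -0.38 in knockdown replicates 2, 3 and 4 over the 5 genes including PLK1. Their fitted log2 differences lay between -0.38 (PLK1) and -0.13 (AURKB, SE 0.10), with a median of -0.17, and of -0.01 without knockdown replicate 4. AURKA, which builds spindle poles, had 58.0, 58.7 and 34.7 FPKM in the knockdown libraries, against 61.1, 55.2 and 56.0 FPKM in the controls. AURKB, the kinase of the chromosomal passenger complex that corrects attachments, had 43.1, 44.3 and 36.7 FPKM, against 49.4, 42.3 and 44.5 FPKM in the controls. The first differed far more in replicate 4, at 60.4% of its control mean, than the second, at 80.8%. Of the passenger proteins that hold AURKB in place, BIRC5 (survivin) had 77.4, 84.2 and 62.4 FPKM in the knockdown libraries, against 83.5, 80.0 and 81.1 FPKM in the controls. INCENP, its scaffold, had 24.1, 21.9 and 18.7 FPKM in the knockdown libraries, against 22.2, 22.7 and 28.5 FPKM in the controls. Control replicate 4 was the high library for INCENP, and the SD was 2.72 FPKM in knockdown and 3.51 FPKM in control.

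CDK1 and its cyclins were lower in replicate 4 by unequal amounts. The fitted log2 differences lay between -0.23 (CCNB1, SE 0.19) and -0.08 (CDK1, SE 0.09), with a median of -0.16, and of 0.004 without knockdown replicate 4. CDK1, the kinase that starts mitosis, had 97.3, 104.2 and 84.1 FPKM in the knockdown libraries, against 101.3, 101.3 and 98.1 FPKM in the controls. CCNB1, its main cyclin partner, had 126.7, 133.2 and 80.1 FPKM in the knockdown libraries, against 137.3, 128.0 and 124.4 FPKM in the controls. Replicate 4 held CDK1 at 83.9% and CCNB1 at 61.7% of their control means. CCNB2 had 89.3, 101.1 and 67.6 FPKM in the knockdown libraries, against 99.5, 87.8 and 105.1 FPKM in the controls. CCNA2, the cyclin of S and G2 phase, had 73.2, 72.7 and 50.6 FPKM in the knockdown libraries, against 70.5, 71.7 and 70.7 FPKM in the controls, which varied least of the 4 genes. CCNA2 was above all controls in knockdown replicates 2 and 3 and below them in replicate 4.

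Genes of anaphase entry had the lowest median of the 7 role groups in replicate 4, at -0.56, with 0.01 and 0.08 in replicates 2 and 3. The fitted median was -0.17, and 0.02 without knockdown replicate 4. Besides CDC20, PTTG1 (securin, the inhibitor that is destroyed to free separase) had 253.9, 288.7 and 180.6 FPKM in the knockdown libraries, against 274.0, 267.5 and 257.6 FPKM in the controls. ESPL1, separase itself, which cuts cohesin, had 21.5, 20.5 and 16.8 FPKM in the knockdown libraries, against 21.6, 20.5 and 21.6 FPKM in the controls. PTTG1 shares reads with near-identical copies, and PTTG2 and PTTG3P were listed at no more than 0.175 FPKM in any library, so how reads were divided is uncertain.

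In the kinetochore the Ndc80 complex, which grips microtubules, differed among its subunits in knockdown replicate 4. NUF2 stood at 69.4% of its control mean there, NDC80 at 89.0%, SPC24 at 91.0% and SPC25 at 94.5%. NUF2 had 79.6, 89.5 and 62.3 FPKM in the knockdown libraries, against 91.4, 86.4 and 91.1 FPKM in the controls. NDC80, which gives the complex its name, had 19.3, 18.8 and 18.7 FPKM in the knockdown libraries, against 20.2, 21.0 and 21.8 FPKM in the controls. NDC80 did not overlap between groups, and its 3 knockdown values were close together, with a log2 difference of -0.14 (SE 0.07, limma unadjusted p = 0.0727, adjusted p = 0.9998). SPC25 had 14.4, 13.8 and 13.4 FPKM in the knockdown libraries, against 13.7, 14.7 and 14.3 FPKM in the controls, which overlap.

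The 9 kinetochore genes had a fitted median of -0.14, and of -0.04 without knockdown replicate 4. CENPA, the histone variant that marks centromeres, had 27.1, 29.5 and 17.2 FPKM in the knockdown libraries, against 27.8, 29.1 and 28.2 FPKM in the controls. CENPF, a large protein of the outer kinetochore, had 88.1, 84.5 and 66.2 FPKM in the knockdown libraries, against 81.5, 91.4 and 112.5 FPKM in the controls. For CENPF the control libraries spread widely as well, and knockdown replicate 4 was lowest of the 6. ZWINT (73.9, 81.6 and 67.3 FPKM in knockdown, 79.4, 75.4 and 72.7 FPKM in control) and KNTC1 (16.8, 14.5 and 15.4 FPKM in knockdown, 14.4, 16.1 and 17.7 FPKM in control) both serve checkpoint signalling at the kinetochore and lay near their controls.

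Among the checkpoint genes, BUB1B (BubR1, a direct inhibitor of CDC20) was the lowest in replicate 4, at 63.1% of its control mean. The fitted median of the 5 genes was -0.13, and -0.01 without knockdown replicate 4. It had 49.8, 48.0 and 31.2 FPKM in the knockdown libraries, against 46.8, 50.6 and 50.8 FPKM in the controls. MAD2L1 (Mad2), which acts in the same inhibitory complex, had 141.4, 149.1 and 106.5 FPKM in the knockdown libraries, against 145.0, 151.7 and 134.6 FPKM in the controls. BUB3, the third protein of that complex, had 134.7, 147.0 and 132.8 FPKM in the knockdown libraries, against 146.2, 144.2 and 151.9 FPKM in the controls. In replicate 4 BUB3 stood at 90.1% of its control mean and MAD2L1 at 74.1%. The kinases BUB1 (27.0, 25.8 and 20.1 FPKM in knockdown, 25.7, 26.9 and 25.7 FPKM in control) and TTK (Mps1; 26.6, 27.4 and 22.6 FPKM in knockdown, 25.9, 29.5 and 30.7 FPKM in control) lay between.

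The 10 kinesins and spindle proteins had a median of -0.42 in knockdown replicate 4, with -0.01 and -0.08 in replicates 2 and 3. Their fitted differences lay between -0.31 (KIF20A) and -0.07 (KIF18A, SE 0.12), with a median of -0.16, and of -0.04 without knockdown replicate 4. TPX2, the activator of AURKA on the spindle, had 83.5, 84.0 and 65.7 FPKM in the knockdown libraries, against 85.1, 85.2 and 93.6 FPKM in the controls. The groups did not overlap in the values as deposited. PRC1, which bundles the microtubules of the central spindle, had 96.7, 99.8 and 71.9 FPKM in the knockdown libraries, against 96.8, 94.7 and 99.9 FPKM in the controls. ASPM, a spindle pole protein, had 33.0, 29.6 and 24.4 FPKM in the knockdown libraries, against 29.6, 34.2 and 39.5 FPKM in the controls. The cytokinesis kinesin KIF23 stood at 66.9% of its control mean in replicate 4 and KIF14 at 65.9%, whereas KIF11, which pushes spindle poles apart, stood at 83.4% and KIF2C, a depolymerizing kinesin, at 81.2%. KIF18A, with 7.65, 6.69 and 6.68 FPKM in the knockdown libraries and 6.62, 6.75 and 8.95 FPKM in the controls, was the lowest expressed member. KIF4A has a near-identical copy, KIF4B, listed at no more than 0.0609 FPKM, so the division of reads between them is uncertain.

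The 4 chromosome structure genes had medians of -0.09, -0.06 and -0.21 in knockdown replicates 2, 3 and 4. Their fitted median was -0.12, and -0.08 without knockdown replicate 4. TOP2A, the topoisomerase that untangles sister chromatids, had 131.0, 130.9 and 117.6 FPKM in the knockdown libraries, against 128.7, 133.4 and 155.7 FPKM in the controls. SMC4 and SMC2, the core pair of condensin, differed: SMC4 had 101.8, 109.4 and 89.7 FPKM in the knockdown libraries, against 110.5, 114.5 and 109.5 FPKM in the controls, while SMC2 had 25.9, 25.5 and 22.1 FPKM, against 25.1, 26.4 and 24.4 FPKM in the controls. NCAPG, a further condensin subunit, had 34.2, 32.6 and 34.5 FPKM in the knockdown libraries, against 35.3, 36.5 and 37.9 FPKM in the controls. It did not overlap between groups and knockdown replicate 4 was not its lowest library.

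Of 66 other mitosis genes, none passed the adjusted threshold, 51 had a fitted difference below 0 (53.3% of all genes), and 49 lay below all controls (35.9%) and 3 above (30.7%) in knockdown replicate 4. The fitted median was -0.09, and -0.01 without knockdown replicate 4. Their medians were -0.01, -0.02 and -0.22 in knockdown replicates 2, 3 and 4. The lowest in replicate 4 was CEP55, a protein of the final cut of cytokinesis, with 35.0, 35.1 and 19.3 FPKM in the knockdown libraries and 34.0, 36.1 and 36.0 FPKM in the controls. GTSE1, a microtubule-binding protein, had 26.7, 28.5 and 21.6 FPKM in the knockdown libraries, against 32.3, 32.1 and 32.7 FPKM in the controls, with an unadjusted p of 0.0170 and an adjusted p of 0.9998 in limma. CENPM, a protein of the inner kinetochore, had 15.96, 20.58 and 16.13 FPKM in the knockdown libraries, against 24.97, 20.96 and 21.77 FPKM in the controls. CENPK, of the same centromere network, had 16.83, 18.35 and 16.13 FPKM, against 21.45, 19.92 and 18.68 FPKM in the controls. Neither of them overlapped between groups, and both had an adjusted p of 0.9998 in limma. GTSE1 (chr22:46296741-46330810) and CENPM (chr22:41938721-41947164) lie on chromosome 22, as MIAT does, and CENPK lies on chromosome 5. The part of that position in their differences was not tested. CENPQ and SKA1 were the 2 highest in replicate 4, at differences of 0.21 and 0.20.

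Neighbouring parts of the cell cycle stood nearer to the controls in knockdown replicate 4. The median differences in that library were -0.06 for 36 DNA replication genes, -0.12 for 15 genes of the anaphase-promoting complex, -0.02 for 24 transcription regulators of the cell cycle and -0.04 for 20 CDK inhibitors and p53 targets. FOXM1, a factor that drives many G2 and M genes, had 76.6, 75.9 and 68.2 FPKM in the knockdown libraries, against 76.3, 73.7 and 76.7 FPKM in the controls. MYBL2, its partner at these promoters, had 124.0, 123.95 and 97.05 FPKM in the knockdown libraries, against 124.6, 121.6 and 106.2 FPKM in the controls. E2F1, a factor of S phase entry, had 78.0, 81.3 and 63.2 FPKM in the knockdown libraries, against 81.8, 79.0 and 70.6 FPKM in the controls. All 3 factors were lowest in knockdown replicate 4, as were 31.4% of all genes tested. Of the 24 regulators, 10 lay below all controls in that library (35.9% of all genes) and 7 above (30.7%). CDKN1A, the CDK inhibitor p21, had 1.24, 1.19 and 1.45 FPKM in the knockdown libraries, against 0.945, 1.27 and 0.633 FPKM in the controls. The 13 reference genes were at -0.24 in replicate 4, with TFRC at -1.04 and ACTB at -0.53, so members were not the only genes lower there. Over all 38 interferon response genes, with no filter on low values, the medians were 2.12, 0.29 and 6.36 in knockdown replicates 2, 3 and 4. Of these genes 36, 29 and 38 lay above all controls, as did 23.1%, 22.7% and 30.7% of all genes tested. Of the 38, 8 had a control mean of at least 1 FPKM. ISG15, a ubiquitin-like protein induced by interferon, had 48.6, 2.40 and 1622 FPKM in the knockdown libraries, against 0, 0.149 and 0 FPKM in the controls. The members' medians beside those were -0.04, -0.02 and -0.39, and the part of the interferon genes in the difference was not tested.

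**Figure D5:**
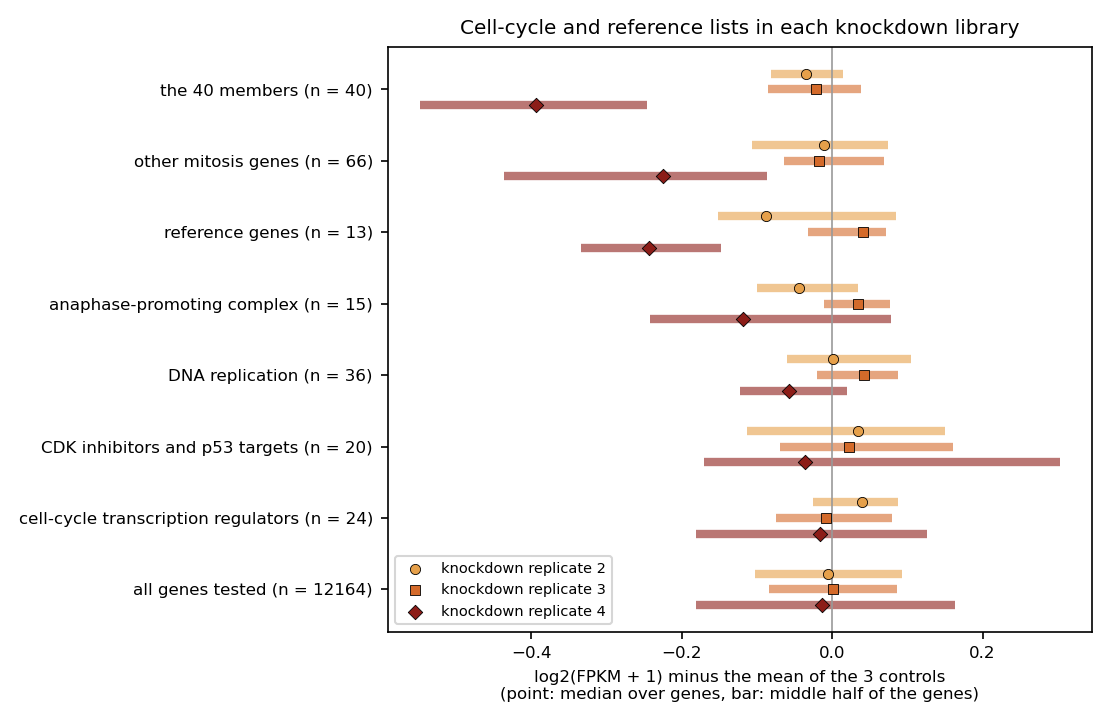
Median difference of log2(FPKM + 1) from the control mean (point) and range of the middle 50% of genes (bar) for the members, 6 other lists and all genes tested, in knockdown replicates 2, 3 and 4. In replicate 4 the medians are -0.39 for the members, -0.22 for other mitosis genes and -0.24 for the reference genes.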

How the data were processed

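RNA of 6 libraries was compared, 3 knockdown and 3 control, grouped and numbered by their labels. The deposited values were FPKM per gene, with 1 column per library. Per the submitters' processing notes TopHat2, Cuffdiff and hg38 were used, while their versions, the annotation and strand counting are not given in the sources. Because FPKM holds no counts, count models were left out and read depth is unknown. Where FPKM is scaled by the mapped total alone, a few very abundant transcripts in a library lower the FPKM of all others in it. Whether the deposited values were scaled that way was not tested.

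A mean of 1 FPKM or more over the 6 libraries was required. The log2(FPKM + 1) scale, which understates changes of low genes, was used for limma 3.58.1 under R 4.3.3 (lmFit, then eBayes with a trend, two-sided, without covariates), and differences are knockdown minus control. Adjustment was by Benjamini-Hochberg over the 12164 genes, with a threshold of 0.05. The step was tested on simulated data in which all 6 libraries had the spread of the controls. No simulated library stood apart as knockdown replicate 4 does, so that run does not show what the fit can detect here. Single libraries were set against the 3 controls with no test.

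The members, the 7 role groups, the 9 other lists, the tests and the alternatives were chosen with earlier results of these data known. In each role group the 2 members with the smallest p and the 2 with the highest mean FPKM are given in every library, besides 9 always given, and promoters are those of the 4 members lowest in knockdown replicate 4 and up to 2 of the nearest to the controls. Members named beyond that rule were chosen after their values were seen. A marker gene of the lists is not reported here. List entries were matched by symbol (276 of 282) or by an older symbol (6). Gene spans are those of GENCODE release 29 (GRCh38) and promoters those of RefSeq. Alternatives were pseudocounts of 0.1 and 0.01, a minimum of 5 FPKM or none, 3 other scalings, eBayes with no trend or robust, library weights, a replicate block, each library left out in turn, and both libraries numbered 4 left out.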

Additional observations from a re-analysis of the deposited data

How the results depend on the processing

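The count of members past the adjusted threshold was 0 in every alternative run. Over all genes, limma library weights gave 9 higher and 13 lower, and leaving out both libraries numbered 4 gave 1 lower. The weights were 3.34, 0.806 and 0.153 for knockdown replicates 2, 3 and 4, and 0.915, 7.98 and 0.334 for the controls. Results with library weights thus rest mostly on knockdown replicate 2 and control replicate 3. MIAT passed the threshold under the same 2 settings, at -1.58 (adjusted p = 0.00299) and -1.54 (adjusted p = 0.0118), and its adjusted p lay between 0.00299 and 1 over the 17 alternatives that gave it a value (it did not reach a mean of 5 FPKM).

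The direction shared by the 40 members rests on knockdown replicate 4: 24 were fitted below 0 without both libraries numbered 4 (median -0.0041). The count was 28 with library weights (median -0.034), 35 with equal FPKM sums (median -0.097), and 25 to 40 when each library was left out in turn. The share of all genes below 0 is given for the main fit only. With equal FPKM sums the median of all genes was 0.040, beside -0.008 in the main fit. Members without overlap numbered 3 under upper-quartile scaling, 1 with equal FPKM sums and 3 under quantile normalization. With a library left out they numbered 6 to 13 (13 without knockdown replicate 3, 12 without control replicate 2). Groups separate more easily with fewer libraries, and the share of all genes under these settings is not given. The counts with a library left out are therefore not read as a result about the members. Without both libraries numbered 4 the group medians were -0.0096 (kinetochore), 0.017 (kinesins), -0.047 (chromosome structure), -0.0012 (other mitosis genes) and 0.091 (mesenchymal markers). With library weights they were -0.073 (kinetochore), 0.0021 (kinases) and 0.023 (regulators), and equal FPKM sums gave 0.042 for regulators. With a library left out the medians ranged over -0.17 to -0.035 (kinetochore), -0.015 to 0.025 (regulators) and -0.15 to 0.092 (mesenchymal markers).

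For single libraries, equal FPKM sums and quantile normalization gave member medians of 0.064 and -0.0068 in knockdown replicate 2, with 2 and 8 members below all controls, and -0.34 and -0.36 in replicate 4. In replicate 3, 4 members were below all controls under upper-quartile scaling, 5 with equal sums and 8 to 18 with a control left out. A value falls below all controls more easily when a control is left out. The share of all genes under these settings is not given, so the rise is not read as a result about the members. The replicate 4 median ranged from -0.42 to -0.37 with a control left out.

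Differences of named members turned positive with library weights for AURKA (0.032), AURKB (0.0021), INCENP (0.037), CCNB2 (0.015), CDC20 (0.013), ESPL1 (0.030) and PRC1 (0.017). Without both libraries numbered 4 they did for BUB1 (0.0055), AURKA (0.0063), INCENP (0.032), CCNB2 (0.023), CDC20 (0.011) and PRC1 (0.036). With a library left out they ranged over -0.19 to 0.017 (BUB1), -0.23 to 0.016 (MAD2L1), -0.35 to 0.023 (AURKA), -0.59 to 0.014 (PLK1), -0.15 to 0.0074 (CDK1), -0.36 to 0.0013 (CCNB1), -0.45 to 0.046 (CDC20), -0.31 to 0.024 (PTTG1) and -0.22 to 0.016 (PRC1). The cause was not tested.

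Same-numbered libraries correlated at 0.092, 0.168 and 0.322 in their deviations, not all over 0.1, so the numbers were not taken as pairs. Libraries of different number correlated at -0.336 to 0.318. Knockdown replicate 4 stood at 0.322 with control replicate 4, and at -0.26 and -0.213 with control replicates 2 and 3. What these 2 libraries share was not tested. With the replicate block 40 members were below 0, the median was -0.15 and MIAT stood at -1.42 (adjusted p = 0.194). Depth in reads is unknown, so no counting interval is given.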

Other observations

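MKI67, the proliferation marker Ki-67 and no member of the lists above, had 79.6, 66.9 and 68.9 FPKM in the knockdown libraries, by number, against 64.6, 74.3 and 98.5 FPKM in the controls. Knockdown replicate 4 was inside the control range for it. CDT1, which licenses replication origins, was highest in that library. It had 28.8, 27.7 and 35.9 FPKM in the knockdown libraries, against 27.3, 24.8 and 26.8 FPKM in the controls. GINS4, a subunit of the replicative helicase, had 9.33, 9.12 and 11.1 FPKM in the knockdown libraries, against 8.88, 8.16 and 8.71 FPKM in the controls. Neither passed the adjusted threshold in limma (adjusted p = 0.9998 for both), and CDT1 and GINS4 were picked with their values in view.

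KIF14, the member with the largest spread among controls, had 16.97, 15.12 and 11.01 FPKM in the knockdown libraries, against 13.94, 16.11 and 20.1 FPKM in the controls, with control replicate 4 highest. NFYA, a subunit of the factor that binds CCAAT boxes, had 11.16, 10.32 and 6.98 FPKM in the knockdown libraries. Its controls had 10.999, 10.701 and 10.995 FPKM, with an adjusted p of 0.9998 in limma. The other subunits were not lower in knockdown replicate 4 than all controls. NFYB had 11.5, 12.1 and 15.3 FPKM in the knockdown libraries, against 12.0, 13.3 and 13.5 FPKM in the controls. NFYC had 30.8, 32.1 and 32.2 FPKM in the knockdown libraries, against 35.1, 35.8 and 31.6 FPKM in the controls.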
